A study of Mus musculus with 6 samples.

Results

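Angiopoietins, vascular endothelial growth factor (VEGF) receptors and hypoxia-inducible factors are described here for H3K27me3, the trimethylation of histone H3 lysine 27 that the Polycomb enzyme EZH2 writes and the demethylase JMJD3 removes. The 10 genes were chosen by name: the ligands Angpt1, Angpt2 and Vegfa, the receptors Tek, Kdr and Flt1, the oxygen-sensitive factors Hif1a and Epas1, the transcription factor Erg and the oxidase Nox4. They are 10 of 26216 mouse genes with a curated RefSeq transcript. The choice was made with earlier results of these data known. Shares of all genes are therefore given for scale and are not a test of the 10 genes. The mark was mapped by ChIP-seq (sequencing of DNA recovered with an H3K27me3 antibody) in primary granulosa cells of wild type C57BL/6J mice aged 8 to 9 weeks. Control cells (3 samples) received no agent, and treated cells (3 samples) were kept for 24 h with dihydrotestosterone (DHT) at 25 nM, a potent androgen that aromatase does not turn into estrogen. Per the labels, the cells came from 30 mice and were spread over 6 culture dishes, so the samples of both groups drew on pooled animals. The methods of the study give another number of mice for this experiment, and which is right is not known.

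In the ovary, blood vessels grow around the follicle while the granulosa layer inside it stays without vessels. VEGFA, made by granulosa cells, acts on KDR and FLT1 on endothelial cells, and ANGPT1 and ANGPT2 compete for the receptor TEK, with ANGPT1 as the activating ligand and ANGPT2 mostly as its antagonist. HIF1α and EPAS1 accumulate when oxygen is low and induce VEGFA and other targets. H3K27me3 is usually found over silent genes, and a cell type that does not use a vascular gene may carry the mark there.

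The deposited values were 1 peak list per group and 8 lists of gene symbols, with no value per sample. The control list held 16345 peaks with a median fold enrichment over local background of 3.46, and the DHT list held 3975 peaks with a median of 4.21. As the 3 samples of a group were merged into 1 list, depth per sample is unknown, the spread between replicates is unknown too, and the 2 conditions could not be tested against each other. Presence in a list is therefore a description. A gene that is absent had no called peak, which does not show that it lacked the mark. Peak positions are in the mm9 assembly, and peaks inside the 10 genes were not analysed here because no mm9 annotation was used.

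The first question was which of the 10 genes carried a gene body peak in control and in DHT cells. The control gene body list held 5 of them: Angpt1, Tek, Hif1a, Erg and Nox4. Of all genes, 11.9% were in that list. The DHT gene body list held 3 of them, Flt1, Hif1a and Erg, where 4.36% of all genes were listed. Thus 3 genes were in the control list alone (Angpt1, Tek and Nox4; 9.35% of all genes), 2 were in both (Hif1a and Erg; 2.59% of all genes) and 1 was in the DHT list alone (Flt1; 1.76% of all genes). In all, 6 were in at least 1 of these lists (13.7% of all genes), and Angpt2, Vegfa, Kdr and Epas1 were in neither. Both promoter lists, in which a peak had to lie within 1 kb of the transcription start site, held 0 of the 10 genes, while 0.603% of all genes were in the control and 0.206% in the DHT promoter list.

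**Figure D1:**
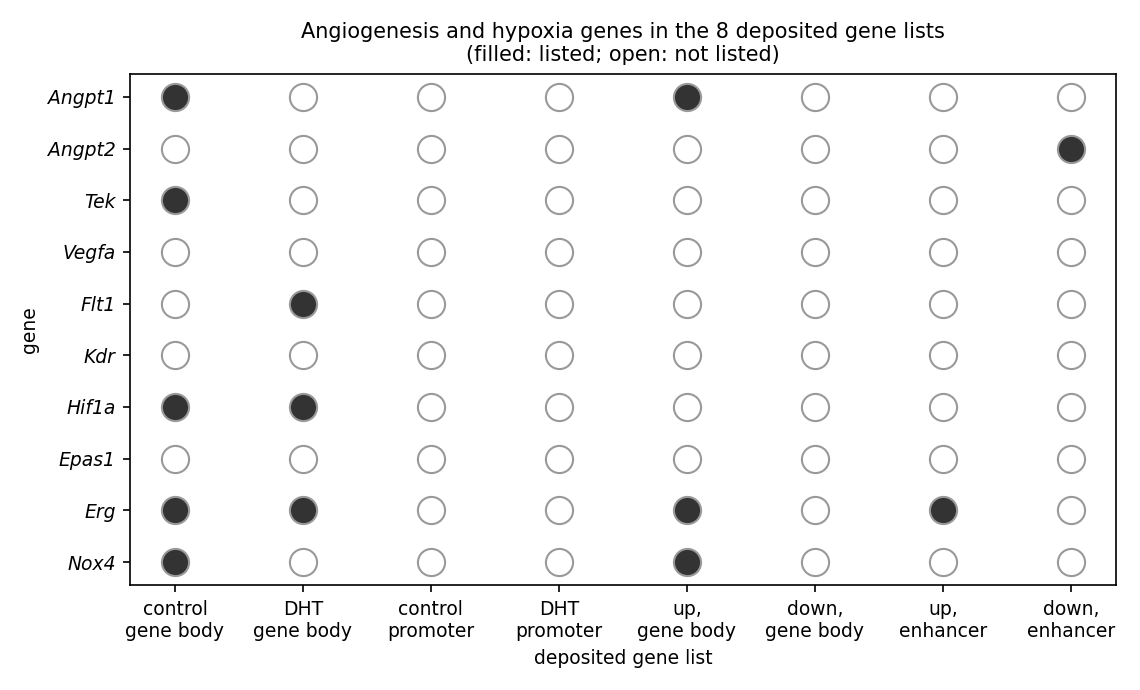
Each row is 1 of the 10 genes and each column 1 of the 8 deposited gene lists, with a filled circle where the gene is listed and an open circle where it is not. Erg is in 4 lists, Angpt1, Hif1a and Nox4 are in 2, Angpt2, Tek and Flt1 are in 1, and Vegfa, Kdr and Epas1 are in none, with both promoter columns empty.

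The angiopoietin ligands differed in every list that held either of them. Angpt1 was in the control gene body list and absent from the DHT list. It was also among the 22 genes deposited as upregulated by DHT with a gene body peak, a list that holds 0.0839% of all genes. All 22 were among the 3594 genes in at least 1 gene body list, so this listing is not independent of the gene body listing. Angpt2 was in neither gene body list. It was among the 33 genes deposited as downregulated and linked to an H3K27me3 enhancer (0.126% of all genes). Expression behind these lists came from the RNA-seq of the study, which was not analysed here. The enhancer lists were selected by the correlation of enhancer signal with expression across control and DHT samples. The study describes separate cell pools for RNA-seq and ChIP-seq and does not say how their samples were paired. The enhancer lists are thus not independent evidence of direction. Tek, the receptor of both ligands, was in the control gene body list alone and in no list of regulated genes. The lists of regulated genes hold only genes that also had a gene body peak or a linked enhancer. Absence from them therefore does not show that expression was unchanged.

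Angpt2 lies wholly within another gene in GRCm38, Mcph1, which encodes a protein of chromosome condensation and DNA repair. Mcph1 spans 213 kb and was in neither gene body list, so the stretch that holds Angpt2 was without a listed peak under either symbol. For the other 9 genes, 0 curated genes overlapped, and their listing is not shared with another curated gene.

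Of the 3 VEGF genes, 1 was listed. Vegfa, which encodes the main ligand, and Kdr, the receptor that carries most of its signal, were in 0 of the 8 lists. Flt1, which encodes a receptor that also acts as a decoy for VEGFA, was the only one of the 10 genes in the DHT gene body list alone. The control and DHT lists came from pools with different numbers of peaks, and at the mean peak density of chromosome 5 a stretch as long as Flt1 would hold 0.931 control peaks and 0.281 DHT peaks. The listing of Flt1 was thus in the shorter list.

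Of the hypoxia-inducible factors, Hif1a was in both gene body lists and Epas1, which encodes HIF2α, was in neither. Hif1a was in no list of regulated genes. At the mean density of chromosome 12, a stretch as long as Hif1a (46.2 kb) would hold 0.274 control peaks and 0.0674 DHT peaks. A peak in Hif1a would be 1 of 698 control peaks on chromosome 12, with a median fold enrichment of 3.45 and a range of 2.87 to 14.6, and 1 of 172 DHT peaks, with a median of 4.21 and a range of 3.37 to 14.2. Epas1 is longer, at 79.5 kb, and at the density of chromosome 17 its stretch would hold 0.487 control peaks and 0.117 DHT peaks.

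Erg encodes an ETS factor that maintains endothelial identity. It was in 4 lists: both gene body lists, the upregulated genes with a gene body peak, and the 66 upregulated entries linked to an enhancer, of which 61 matched (0.233% of all genes). The upregulated genes with a gene body peak are drawn from the gene body lists, so the 4 lists are not independent. Among all genes, 5 were in exactly these 4 lists, namely Erg, Gsg1l, Palmd, Pde11a and Pik3c2g. Nox4, which encodes a hydrogen peroxide producing NADPH oxidase, had the same lists as Angpt1, the control gene body list and the upregulated genes with a gene body peak, and 11 genes in all were in exactly these and no other list. Without that limit, 21 of the 22 upregulated genes with a gene body peak were in the control gene body list. Of the 680 genes in both gene body lists, 655 were in no further list, Hif1a included. The list of 15 downregulated genes with a gene body peak held 0 of the 10 genes (0.0572% of all genes). The study reports fewer downregulated genes with a gene body peak than this list holds, and why is not known.

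Listing went with gene length. Of genes of 100 to 300 kb, 53.3% were in the control and 19.7% in the DHT gene body list, compared with 19.8% and 5.66% of genes of 30 to 100 kb. Of genes of 10 to 30 kb, the class of Vegfa, 5.4% were in the control list, 1.64% in the DHT list and 6.6% in at least 1 of them. The 10 genes had a median length of 107.7 kb, against 14.3 kb for all genes. The 5 longest, Angpt1 (252.3 kb), Erg (227.4 kb), Flt1 (164.8 kb), Nox4 (154.3 kb) and Tek (135.9 kb), were all in at least 1 gene body list, as were 60.5% of genes of their class. Of the other 5, Hif1a alone was listed, and Epas1 (79.5 kb), Angpt2 (51.3 kb), Kdr (46.2 kb) and Vegfa (15.4 kb) were not. In the class of 30 to 100 kb, 23.2% of genes were in at least 1 list and 2.22% were in both, the status of Hif1a. Summed over the 10 genes, the shares of their length classes came to 3.51 for control and 1.23 for DHT, where 5 and 3 genes were listed. With 10 genes, these counts are a description and were not tested.

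**Figure D2:**
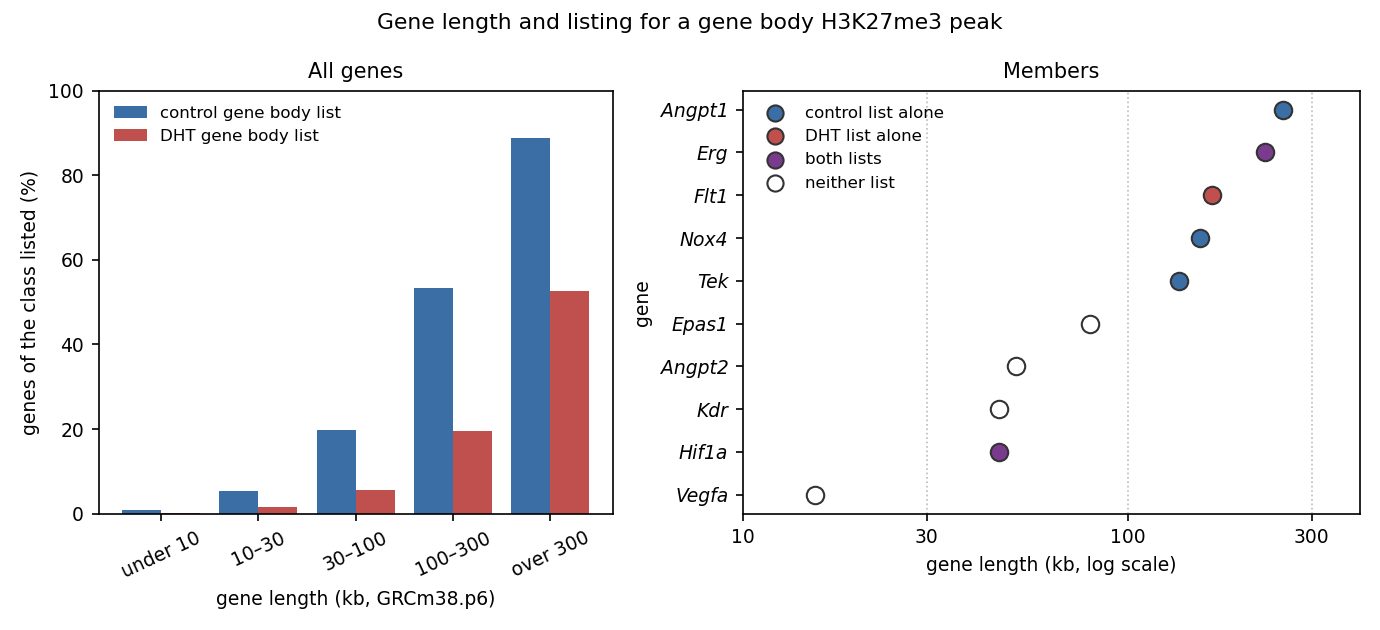
The left panel gives the percentage of all genes in each class of gene length (kb) that were in the control or the DHT gene body list, and the right panel places the 10 genes by length (kb, log scale), coloured by the list that held them. All 5 genes over 100 kb were listed, and of the 5 shorter genes Hif1a alone was.

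The promoters were then examined in sequence, since Polycomb marks in many cell types centre on promoters rich in CpG. The count of 0 of the 10 genes in the promoter lists is close to the shares of all genes, 0.603% in control and 0.206% in DHT. The RefSeq promoter table (GRCm38.p6, 250 bases before to 50 bases after the start) held 10 start sites of 7 of the genes, those of Tek, Vegfa, Kdr, Flt1, Hif1a, Erg and Nox4. Angpt1, Angpt2 and Epas1 were not matched. Flt1 had 29 CpG dinucleotides in the window, Hif1a 25, Nox4 24 and Kdr 19. Tek had 3. Vegfa had 16 and 10 at its 2 start sites, and Erg had 16, 2 and 4 at its 3 start sites from the most upstream on. The median of all 32851 promoters was 7, and 26.5% had 20 or more, as did 3 of the 10 start sites. Genes in the control promoter list had a median of 6.50 and those in the DHT promoter list a median of 8. The 3 start sites with 20 or more were those of Flt1, Hif1a and Nox4, which were all in a gene body list. Tek, with 3, was in a gene body list too, and Kdr, with 19, was in neither.

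**Figure D3:**
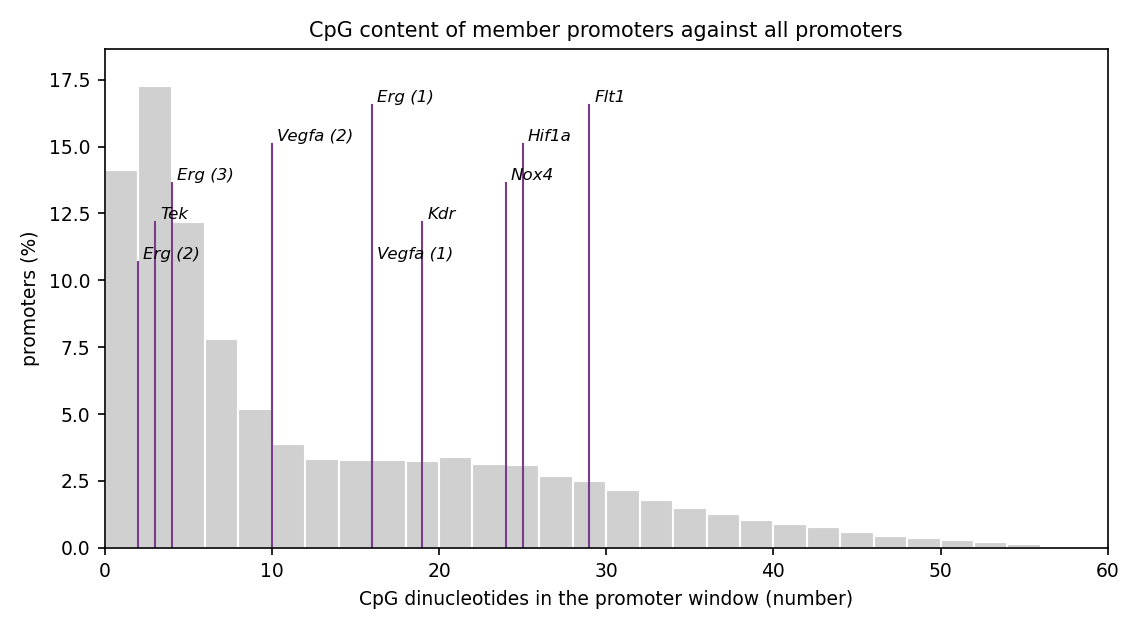
Grey bars give the percentage of all promoters in the RefSeq table by their number of CpG dinucleotides in a window of 300 bases, and lines mark the start sites of 7 of the genes, numbered from the most upstream where a gene has several. The member start sites range from 2 in Erg to 29 in Flt1.

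The 250 bases before the start are shown for Hif1a (chr12:73907617-73907866, + strand) and Tek (chr4:94739039-94739288, + strand), one rich and one poor in CpG and both with a gene body listing, and for the VEGF receptors Flt1 (chr5:147726012-147726261, - strand) and Kdr (chr5:75978456-75978705, - strand), one listed after DHT and one never listed. Coordinates are GRCm38.p6 and were not compared with the mm9 peaks. Capitals mark the hypoxia response core, ACGTG or GCGTG on either strand, and in Tek the androgen receptor hexamer TGTTCT, which reads AGAACA on the strand shown.
Hif1a: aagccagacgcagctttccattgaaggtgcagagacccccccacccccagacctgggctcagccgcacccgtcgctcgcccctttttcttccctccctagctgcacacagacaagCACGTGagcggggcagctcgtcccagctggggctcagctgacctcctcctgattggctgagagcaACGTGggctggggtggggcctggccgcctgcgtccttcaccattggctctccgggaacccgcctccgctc
Tek: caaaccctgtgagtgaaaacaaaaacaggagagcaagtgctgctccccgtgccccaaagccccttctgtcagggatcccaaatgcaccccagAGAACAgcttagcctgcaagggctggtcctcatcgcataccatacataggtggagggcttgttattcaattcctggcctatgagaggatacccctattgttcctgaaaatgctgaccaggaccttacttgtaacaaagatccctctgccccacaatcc
Flt1: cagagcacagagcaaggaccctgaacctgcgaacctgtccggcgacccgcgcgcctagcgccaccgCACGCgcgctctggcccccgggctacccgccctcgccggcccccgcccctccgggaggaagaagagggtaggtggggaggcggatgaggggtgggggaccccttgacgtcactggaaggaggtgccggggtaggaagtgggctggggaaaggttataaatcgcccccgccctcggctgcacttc
Kdr: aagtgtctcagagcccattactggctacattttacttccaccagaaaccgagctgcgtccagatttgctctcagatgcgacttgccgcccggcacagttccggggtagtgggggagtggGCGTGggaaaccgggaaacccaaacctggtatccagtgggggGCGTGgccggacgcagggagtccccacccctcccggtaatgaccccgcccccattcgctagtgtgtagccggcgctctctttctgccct

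Over the window of 300 bases, the hypoxia core was present at 1 or more start sites of 6 of the 7 genes, namely Hif1a, Kdr, Flt1, Nox4, Vegfa and Erg. Counted by start site, it was present at 6 of 10, and in 43.8% of all promoters. In Vegfa it was present at the second start site and in Erg at the third. Hif1a had 3 matches, of which 2 were the overlapping readings of 1 CACGTG palindrome. Tek had no match. The androgen receptor hexamer was present in Tek and at the second start site of Erg, so at 2 of 10 start sites, and in 19.0% of all promoters. The letters show that a sequence is present and not that a factor binds it.

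Next, the wider pathways were looked up. Beside the 10 genes, 66 further genes were examined, with a median length of 24.3 kb. Of these, 5 (7.58%) were in the control gene body list and 4 (6.06%) in the DHT list, and 0 were in a promoter list. The length classes of these 66 genes would give 9.37 and 3.05. In the angiopoietin-Tie pathway, Svep1, which encodes an extracellular matrix protein, was in the control list alone, and Ptprb, the phosphatase that restrains TEK, in the DHT list alone, while Tie1 and Angpt4 were in neither. Of the VEGF coreceptors, Nrp1 was held by the control list alone and Nrp2 by the DHT list alone. Svep1, Ptprb, Nrp1 and Nrp2 are all of 100 to 300 kb, a class with shares of 53.3% for control and 19.7% for DHT. With members included, the 7 angiopoietin-Tie genes had 3 control listings and 1 DHT listing, where their length classes would give 2.58 and 0.916. The 10 VEGF ligands and receptors had 1 control listing and 2 DHT listings, where 2.70 and 0.952 would be. Vegfd, a ligand mainly of lymphatic vessels, was in the downregulated list linked to enhancers, as Angpt2 was.

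Of 10 hypoxia-inducible factors and regulators, 2 were in the control gene body list. They were Hif1a and its partner Arnt, and Arnt was absent from the DHT list, which held 1 of the 10, Hif1a. The length classes of these genes would give 1.65 and 0.518. The oxygen sensors Egln1, Egln2 and Egln3 and the ubiquitin ligase subunit Vhl were in no list. All 15 hypoxia target genes examined, among them Slc2a1, Ldha, Bnip3 and Kdm6b, were in 0 lists. This does not show unchanged expression, as the study reports that DHT raised Kdm6b mRNA. The list holds Vegfa but is not complete: the study names Angpt1 and Erg as known HIF1α targets, and both were in the control gene body list. The median length of the 15 genes was 15.4 kb, and their length classes would give 1.21 genes in the control and 0.352 in the DHT list.

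**Figure D4:**
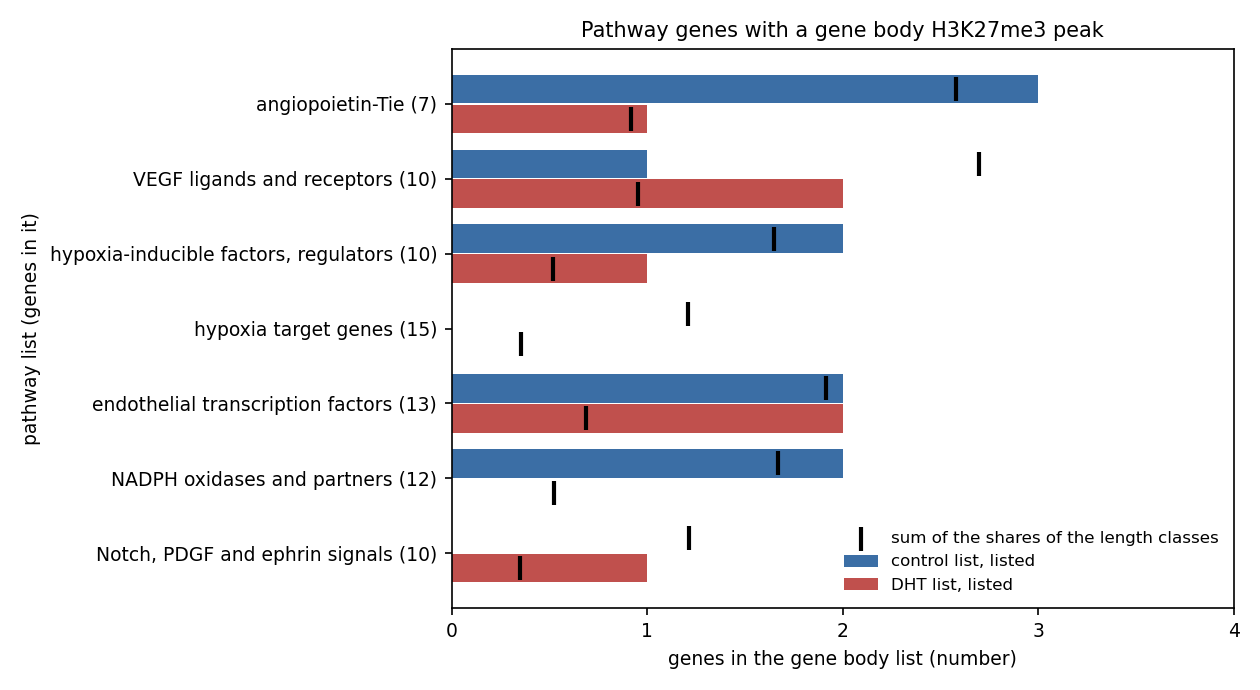
Bars give the number of genes of each pathway list in the control and the DHT gene body lists, and black ticks give the sum of the shares of the length classes of the same genes. In the angiopoietin-Tie list, 3 genes had a control and 1 a DHT listing, and the hypoxia target genes have 0 of 15.

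Among 13 endothelial transcription factors, Erg was in both gene body lists, the related ETS gene Fli1 was in the control list alone, and Ets2 was in the DHT list alone. That made 2 genes in each list, where the length classes of the 13 would give 1.92 and 0.685. Ets2 lies beside Erg in GRCm38, and both were in the DHT list, Erg in the control list as well. Kcnj15, the protein-coding neighbour on the other side of Erg, was in no list. Among 12 NADPH oxidases and partners, Nox4 and Nox3 were in the control gene body list and 0 were in the DHT list, where their length classes would give 1.67 and 0.523. Ncf1, which encodes a cytosolic subunit of the phagocyte oxidase, was in the upregulated enhancer list, as Erg was. Of 10 Notch, PDGF and ephrin genes, the pericyte receptor gene Pdgfrb was in the DHT list alone and 0 were in the control list, where the length classes would give 0.351 and 1.21.

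The protein-coding neighbours on either side were also looked up, 20 genes in all. Of these, 7 were in the control gene body list and 5 in the DHT list, where 11.9% and 4.36% of all genes were listed and the length classes of the 20 would give 5.06 and 2.13. Rspo2, next to Angpt1, and Tyr, next to Nox4, were in both lists, although Angpt1 and Nox4 were in the control list alone. Csmd1, next to Angpt2, and Prkce, next to Epas1, were in both lists while Angpt2 and Epas1 were in neither. Csmd1 spans 1643 kb and Prkce 490.1 kb. Ift74, next to Tek, Pan3, next to Flt1, and Prkch, next to Hif1a, were in the control list alone. Ets2, next to Erg, was in the DHT list alone. Both neighbours of Kdr (Kit and Srd5a3) and of Vegfa (1600014C23Rik and Mrps18a) were in no list. The remaining neighbours, Abra, Agpat5, Eqtn, Pomp, Snapc1, Tmem247, Kcnj15 and Vmn2r79, were in no list either.

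Marker genes of cell types were looked up in the same lists, as no expression values were used here. A listing does not tell which cells were present. Of 10 endothelial marker genes, Pecam1 was in both gene body lists, Emcn was in the control list alone and Vwf was in the DHT list alone, while Cdh5, Cd34, Esam, Eng, Egfl7, Plvap and Tie1 were in neither. That made 2 in each list, where the length classes would give 1.59 for control and 0.505 for DHT. Of 6 granulosa marker genes, Fshr was in both and Cyp19a1 in the control list alone, whereas Foxl2, Amh, Inha and Inhba were in neither, and the length classes would give 1.15 and 0.417. Of Cyp17a1, Cyp11a1 and Star, grouped here as theca markers, 0 were listed, where 0.073 and 0.022 would be. Whether granulosa cells also express these genes was not examined. Of 4 pericyte and smooth muscle markers, Pdgfrb was in the DHT list alone, where the length classes would give 0.647 for control and 0.186 for DHT. The part of other ovarian cells in these pools was not tested.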

How the data were processed

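H3K27me3 ChIP-seq was performed in 6 samples of mouse granulosa cells, 3 control and 3 DHT, grouped by the labelled agent. Reads were aligned by the authors (Bowtie2 2.3.4, mm9), and broad peaks were called from those that mapped uniquely (MACS2 2.1.1, q-value up to 0.05). How replicates were combined was not stated. The deposited peak files hold a fold enrichment ratio over local background, the −log10 q-value and a score derived from it by the authors' caller. The deposited gene lists hold symbols and carry no values. The authors compared peaks with gene annotation whose release was not given in the sources used here. Enhancer genes were linked by public chromatin contacts and a correlation below -0.4.

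Symbols were looked up in Python 3.11.15 with pandas 2.3.3, numpy 2.4.6 and scipy 1.17.1, and plots were drawn with matplotlib 3.10.9. Older symbols were mapped to current ones where unambiguous. Of the 3144 control and 1146 DHT gene body entries, 3132 and 1142 distinct genes matched the RefSeq table of GRCm38.p6. This table gave names, gene lengths, neighbours and promoters, and no peak was compared with it. Mean peak density was the number of peaks on a chromosome divided by the mm9 span from its first to its last peak. The lookup and the motif search were tested on simulated data. The members and pathway lists were chosen with earlier results of these data known. All 10 members were named, with every pathway or marker gene in at least 1 list, the neighbours, and genes with the identical pattern of 2 or more lists if 8 or fewer. Pathway and marker genes at 0 lists were named as examples after their values were seen. The planned comparison of proteins was not run. No test between control and DHT was possible.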

Additional observations from a re-analysis of the deposited data

How the results depend on the processing

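No paired analysis was possible because each group has 1 pooled list, with replicates merged. Leaving out replicates, or blocking on their number, was thus not run. Stricter q-values and other definitions of a peak inside a gene need mm9 annotation and were not run, and transcript length was not tried. Of 119 alternative values over 20 results, 110 stayed within the 95% interval or 1.5-fold range of the value reported. That count says little about robustness. The interval treats the chosen genes as independent draws and is wide, 23.7 to 76.3% for the control gene body list. Of the values, 80 left out 1 gene, which can move a share only slightly. Matching by exact spelling or by synonyms in any case changed 0 listings. With 1 gene left out, the share of members listed ranged from 44.4 to 55.6% in the control gene body list, 22.2 to 33.3% in the DHT gene body list and among upregulated genes with a gene body peak, and 0 to 11.1% in both enhancer lists, and the promoter and downregulated gene body lists stayed at 0%. The low ends of the enhancer lists rest on Erg and on Angpt2. With relatives added (29 genes), 10.3% were upregulated with a gene body peak, compared with 30.0%, as the divisor grew. The control gene body list held 8 of these 29 genes (27.6%), compared with 5 of the 10 members. The DHT gene body list held 5 of the 29 (17.2%), compared with 3 of the 10 members. Both gene body shares were thus lower with relatives, and were counted as having stayed only because the intervals are wide. Among protein-coding genes the background was 13.6% in the control and 4.96% in the DHT gene body list. Without length classes, 1.20 and 0.436 members would be listed. With the longer core TACGTG, 0 of 7 genes had a match, and with 250 bases 1 gene kept the androgen receptor hexamer. Depth is unknown, so an absent gene may lie below the calling limit.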
